A study of Saccharomyces cerevisiae with 6 samples.

Results

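Purine nucleotide synthesis was followed here through the transcripts of 10 yeast genes: ADE1, ADE2, ADE4, ADE6, ADE8, ADE12, ADE13, ADE16, ADE17 and IMD4. They were chosen by name, with earlier results of these data known. All 10 were found among the 7126 genes of the deposited table, and all 10 passed the count minimum that left 6330 genes for testing. The cells were the haploid wild-type Saccharomyces cerevisiae strain BY4741, grown overnight in synthetic complete (SC) medium with glucose, which yeast ferments, or with glycerol, which it must respire, with 3 biological replicates per carbon source. Poly(A) RNA from whole cultures was sequenced without strand information, and the adenine content of the medium is not given in the sources used here. BY4741 is a laboratory strain that carries a partial deletion of HIS3 and full deletions of LEU2, MET17 and URA3 in both groups. The latter 3 genes had 0 counts in every library, while HIS3 kept between 662 and 1216. Markers of the a mating type of BY4741 (STE2, MFA1, MFA2, STE6 and BAR1) had at least 663 counts in each library, and those of the alpha type (STE3, MF(ALPHA)1 and MF(ALPHA)2) had between 39 and 343. In the test described below, 5 of 5 a-type markers were called lower in glycerol and 3 of 3 alpha-type markers higher. Of all tested genes, 40.1% were called lower and 41.7% higher. The a-type markers fell between 2.06-fold (MFA1) and 22.8-fold (STE2), and the alpha-type markers rose between 1.37-fold (MF(ALPHA)2) and 2.71-fold (MF(ALPHA)1). The part of these markers in the purine results was not tested.

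Yeast builds purines on an activated ribose, 5-phosphoribosyl-1-pyrophosphate (PRPP), and a chain of ADE enzymes turns it stepwise into inosine monophosphate (IMP). From IMP the pathway forks: Ade12 and Ade13 lead to AMP, whereas IMP dehydrogenase (the IMD enzymes) and Gua1 lead to GMP. The chain is shared with histidine synthesis, which releases one of its intermediates, AICAR, and it draws formyl groups from one-carbon metabolism. Transcription of the ADE genes is known to be driven by the Myb-type factor Bas1 together with the homeodomain protein Pho2 (also called Bas2), which act when purines are scarce. Bas1 recognizes the hexamer TGACTC, a sequence that the amino acid starvation factor Gcn4 binds as well.

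The promoters of the 10 genes were searched for this hexamer on both strands. The windows were the 300 and the 500 bases before each start codon of the R64 genome (RefSeq). In the 300-base window 7 of the 10 genes held at least 1 match, compared with 7.76% of 6002 nuclear protein-coding genes, and 3 of the 10 held at least 2, compared with 0.650%. In the 500-base window 8 of the 10 held a match, against 12.6% of all genes. Neither ADE16 nor IMD4 held these letters in either window. The 30-base stretches around the matches are shown since the hexamer is what 8 of the 10 promoters share. Each runs 5′ to 3′ along the coding strand, with the hexamer or its reverse complement GAGTCA in capitals.
ADE1, chrI:169142-169171, plus strand: tattcacGAGTCAgtcTGACTCttgcgaga
ADE2, chrXV:566370-566399, minus strand: tatgctgacaaaTGACTCttgttgcatggc
ADE2, chrXV:566327-566356, minus strand: atactaagtgatTGACTCttgctgaccttt
ADE4, chrXIII:867431-867460, minus strand: gacccgatgtatTGACTCttcctgaccgaa
ADE6, chrVII:616224-616253, minus strand: ttcaaccgttccTGACTCtttcctgctgac
ADE8, chrIV:1289016-1289045, minus strand: atgagTGACTCgttgctagTGACTCtgacc
ADE12, chrXIV:234179-234208, plus strand: atccttttcattGAGTCAcagattaacaaa
ADE13, chrXII:844054-844083, plus strand: cctccgcgagcaGAGTCAaacttcaaacaa
ADE17, chrXIII:509440-509469, minus strand: ccagaaatgaatTGACTCctctcataactt

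In ADE1 and ADE8 the paired matches lay within a single stretch, from 226 to 212 and from 181 to 162 bases before the start codon. The ADE4 match was the only one of those shown that lay beyond the 300-base window, at 357 to 352 bases. Matches of ADE12 and ADE17 beyond that window are not shown. In several promoters the hexamer was followed by the same letters, as TGACTCTT, an extension noticed after the sequences were read. Within 500 bases it occurred in ADE1, ADE2, ADE4, ADE6 and ADE17, 5 of the 10 genes, and in 2.72% of all genes. The ADE17 match with this extension is among those not shown. Within 300 bases the extension occurred in ADE1, ADE2 and ADE6, 3 of the 10 genes, and in 1.77% of all genes. A match describes the letters of these windows and does not show that a factor bound there. The genes without a match, ADE16 and IMD4, had the smallest and the largest fall of the 10 under TMM (log2 fold changes -0.31 and -3.11). Whether the matches bear on the fold changes was not tested.

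Counts on genes totaled between 15289163 and 20038052 per library. Cytosolic ribosomal protein genes held 24.99 to 28.42% of the glucose counts but only 5.73 to 6.79% of the glycerol counts. Levels are given as normalized CPM, counts divided by the product of the library total and its TMM factor (an edgeR scaling for composition), on the usual CPM scale. Log2 fold changes are glycerol over glucose and carry their standard error (SE). Under TMM their median over the 6330 genes was 0.03, and it shifted to 0.52 when only the library totals were used, so a fold change says how a gene moved relative to other transcripts. In bulk RNA of this kind, fewer cells with a transcript and less of it per cell cannot be told apart.

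The transcripts of all 10 purine genes were lower in glycerol with TMM scaling. Each passed the threshold of 0.05 after adjustment (edgeR, quasi-likelihood), and the fold changes ran from 1.24-fold lower for ADE16 to 8.66-fold lower for IMD4. Over all tested genes 40.1% were called lower by this rule, 41.7% higher, and 81.8% in either direction. Every glycerol library lay below every glucose library for 10 of the 10 genes, as it did for 40.8% of all tested genes. The median log2 fold change of the 10 genes was -1.28. Their summed share of a library was 0.379 to 0.400% in glucose and 0.179 to 0.257% in glycerol. With library totals alone, 7 of the 10 genes were still called lower and none higher, the median was -0.79, and ADE2 and ADE16 turned to 0.05 and 0.18. Of all 6330 tested genes, 1652 were called lower and 3605 higher with library totals alone. Without glycerol replicate 3, 7 of the 10 genes were called lower under TMM, as were 2362 of the 6146 genes then tested.

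**Figure D1:**
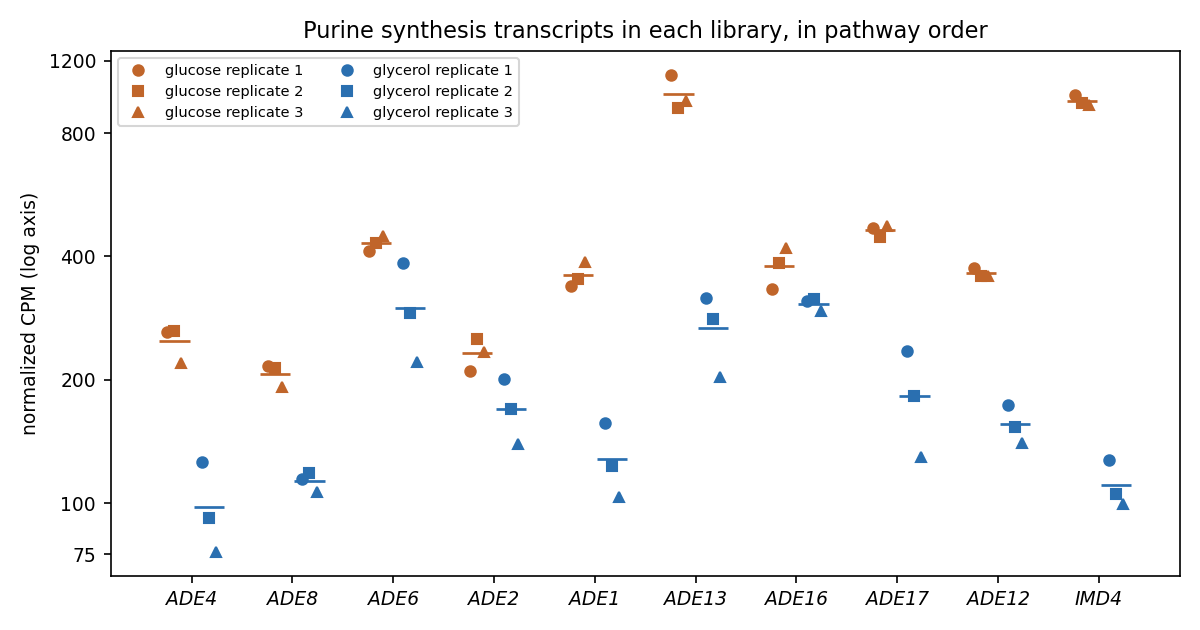
Normalized CPM (log axis) of the 10 purine genes in each library, in the order of the pathway, with glucose in orange and glycerol in blue; the marker shape gives the replicate and the bar the mean of 3 libraries. Under this TMM scaling the glycerol libraries lie below the glucose libraries for each gene, and the group means stand farthest apart for IMD4 and closest for ADE16; with library totals alone ADE2 and ADE16 had log2 fold changes of 0.05 and 0.18.

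The pathway opens with ADE4, the PRPP amidotransferase that commits ribose to purine synthesis and is inhibited by the end products. Its transcript (YMR300C, chromosome XIII from 865559 to 867091) stood at 261, 264 and 220 normalized CPM in the glucose libraries and at 126, 91.8 and 76.0 in the glycerol libraries. The highest glycerol library was well below the lowest glucose library, and the glycerol libraries differed among themselves by 1.65-fold. The log2 fold change was -1.34 (SE 0.155, adjusted p = 9.4e-07). ADE8 encodes the glycinamide ribonucleotide transformylase, which adds the first formyl group. It had 216, 213 and 192 CPM in glucose and 114, 119 and 107 in glycerol, with little spread in either group, and fell by 0.87 on the log2 scale (SE 0.101, adjusted p = 1.0e-06).

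ADE6 and ADE2, which act next in the chain, changed less. ADE6 encodes the large formylglycinamidine ribonucleotide synthetase, and its transcript stood at 412, 431 and 449 CPM in glucose and at 386, 291 and 221 in glycerol. Glycerol replicate 1 came close to the glucose libraries, whereas replicate 3 was far below them. The log2 fold change of -0.53 (SE 0.158, adjusted p = 0.0065) was -0.03 with library totals alone. ADE2 encodes the phosphoribosylaminoimidazole carboxylase, known for the red pigment of its mutants, and had 211, 251 and 233 CPM in glucose and 201, 170 and 139 in glycerol. The groups were separated by only a small gap, and the log2 fold change of -0.45 (SE 0.130, adjusted p = 0.0052) turned to 0.05 with library totals alone. Without glycerol replicate 3 neither gene passed the threshold, with log2 fold changes of -0.32 for ADE6 (adjusted p = 0.0552) and -0.29 for ADE2 (adjusted p = 0.0557).

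ADE1 and ADE13 follow, and both fell further. ADE1 encodes the SAICAR synthetase. Its transcript had 339, 353 and 388 CPM in glucose and 157, 123 and 104 in glycerol, so that the groups stood far apart, with a log2 fold change of -1.49 (SE 0.138, adjusted p = 7.3e-08). ADE13 encodes adenylosuccinate lyase, which acts both in the chain to IMP and in the branch to AMP, and per kilobase its transcript was the most abundant of the 10 in glucose. It stood at 1111, 923 and 960 CPM in glucose and at 317, 281 and 203 in glycerol. The fall was 3.74-fold, a log2 fold change of -1.90 (SE 0.153, adjusted p = 1.4e-08), and only IMD4 fell further among the 10.

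The last steps to IMP are catalyzed by a pair of isozymes, Ade16 and Ade17, which each combine AICAR transformylase with IMP cyclohydrolase. ADE17 had 469, 446 and 475 CPM in glucose and 235, 182 and 130 in glycerol, a log2 fold change of -1.35 (SE 0.165, adjusted p = 1.9e-06). ADE16 had 334, 386 and 420 CPM in glucose and 310, 315 and 293 in glycerol. Its groups nearly touched, and the log2 fold change was -0.31 (95% interval -0.55 to -0.07, adjusted p = 0.0185) with TMM but 0.18 with library totals alone. The ADE16 call was lost without glucose replicate 2 (adjusted p = 0.0620), glucose replicate 3 (0.0537), glycerol replicate 1 (0.0614), glycerol replicate 2 (0.0597) or glycerol replicate 3 (0.0968), so it rests on having all but glucose replicate 1 in the fit.

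The share of each isozyme within a library does not depend on the scaling between libraries. Per kilobase, ADE17 made up 58.4, 53.6 and 53.0% of the reads of the pair in the glucose libraries and 43.0, 36.6 and 30.6% in the glycerol libraries. ADE17 was thus the more abundant isozyme transcript in each glucose library and ADE16 in each glycerol library. The mean share went from 55.0 ± 2.94% to 36.8 ± 6.21% (SD, n = 3 each), a difference of -18.3 percentage points (exact permutation test over libraries, two-sided, p = 0.1, the smallest value 3 against 3 libraries allow). The coding sequences of the pair are 74.7% identical, and the longest run of identical bases in their alignment is 19, shorter than the 150-base reads.

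At the fork, ADE12 encodes adenylosuccinate synthetase, which commits IMP to AMP. Its transcript stood at 375, 359 and 358 CPM in glucose, the tightest of the 10, and at 174, 154 and 140 in glycerol. The log2 fold change was -1.22 (SE 0.109, adjusted p = 5.0e-08). On the other side of the fork, IMD4 encodes an IMP dehydrogenase, the enzyme that commits IMP to GMP. IMD4 (YML056C, chromosome XIII from 162194 to 164176, with an intron that hosts the small nucleolar RNA snR54) had 993, 947 and 935 CPM in glucose and 127, 105 and 99.2 in glycerol. The fall was the largest of the 10, a log2 fold change of -3.11 (SE 0.127, adjusted p = 8.9e-12). Only 0.932% of all tested genes had a lower fold change. It stayed between -3.20 and -3.01 when each library was left out in turn, and was -2.62 with library totals alone.

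IMP dehydrogenase in yeast is also encoded by IMD2, whose transcription is known to respond to guanine nucleotide levels, and by IMD3. IMD2 had 250, 290 and 353 CPM in glucose and 31.5, 29.0 and 24.5 in glycerol, a log2 fold change of -3.39 (SE 0.145, adjusted p = 1.5e-11). IMD3 changed less, from 661, 733 and 826 CPM to 476, 412 and 405, a log2 fold change of -0.78 (SE 0.120, adjusted p = 2.2e-05). In glucose IMD4 was the most abundant of the 3 per kilobase in each library, with 52.1, 48.0 and 44.2% of their reads. In glycerol IMD3 held 75.03, 75.43 and 76.64%, and IMD4 only 20.01, 19.25 and 18.73%. The mean IMD4 share differed by -28.8 percentage points (exact permutation test over libraries, two-sided, p = 0.1, the smallest value possible). The coding sequences of IMD4 and IMD3 are 82.2% identical with a longest identical run of 139 bases, and those of IMD2 and IMD3 88.9% with a run of 94, so some reads may have been assigned to the wrong copy or dropped, and the levels of the 3 genes are uncertain to that extent.

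**Figure D2:**
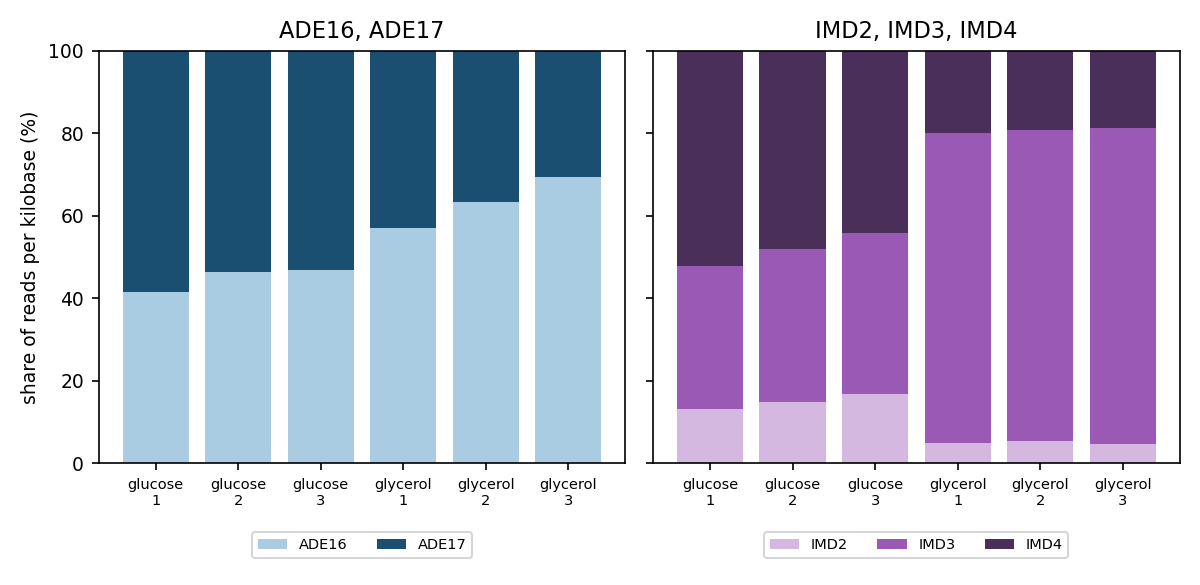
Share (%) of the reads per kilobase held by each isozyme gene within each library, for ADE16 and ADE17 on the left and for IMD2, IMD3 and IMD4 on the right. The ADE17 share lies between 53.0 and 58.4% in glucose and between 30.6 and 43.0% in glycerol, and IMD3 holds between 75.03 and 76.64% of its family in glycerol.

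The order of the 10 genes by level per kilobase was better resolved in glucose than in glycerol. In glucose the means ran from 689 ± 68.7 normalized CPM per kilobase for ADE13 and 608 ± 19.6 for IMD4 down to 106 ± 4.54 for ADE6 (SD, n = 3), a 6.52-fold range. Between them lay ADE1, ADE8, ADE12, ADE17, ADE16, ADE4 and ADE2, in this order. Among the 9 pairs of neighbors only ADE4 and ADE2 overlapped between libraries. In glycerol the range narrowed to 2.88-fold, from 184 ± 40.1 for ADE13 to 63.9 ± 16.6 for ADE4, with IMD4 next to the bottom at 70.2 ± 9.35 (SD, n = 3). There, all 9 pairs of neighbors overlapped, so that no step between neighbors in the order ADE13, ADE8, ADE16, ADE1, ADE12, ADE17, ADE2, ADE6, IMD4, ADE4 exceeded the spread of the libraries. Genes farther apart in the order were separated: each glycerol library of ADE13, ADE8 and ADE16 lay above those of ADE12 and of the genes after it.

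For 8 of the 10 purine genes the glycerol libraries differed among themselves more than the glucose libraries did, ADE8 and ADE16 being the other two. The highest glycerol library was between 1.07 and 1.81 times the lowest, with a median of 1.48 over the 10 genes, while over the 3500 genes that averaged 50 or more normalized CPM the median was 1.14 and the 95th percentile 1.35. ADE1, ADE2, ADE4, ADE6, ADE13 and ADE17, 6 of the 10, lay above that percentile. In glucose the median was 1.13 for the 10 genes and 1.20 for all genes of that level. Glycerol replicate 3 was the lowest of its group for 10 of the 10 genes, and for 40.9% of all genes of that level. Glycerol replicate 1 was the highest for 8 of the 10, against 34.1%. For ADE8 and ADE16 replicate 2 was highest, slightly above replicate 1, with ratios of only 1.11 and 1.07. Among the other purine genes listed below, only ADE5,7 (1.74) lay above the 95th percentile. In the pyrimidine, histidine and one-carbon lists, URA1 (1.87), SHM2 (1.52), HIS7 (1.44) and URA7 (1.41) did, and the other genes did not. The URA1 ratio was the highest of the 3500 genes. Glycerol replicate 3 was the lowest of its group for each of these genes too. These comparisons were made after the values had been seen.

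**Figure D3:**
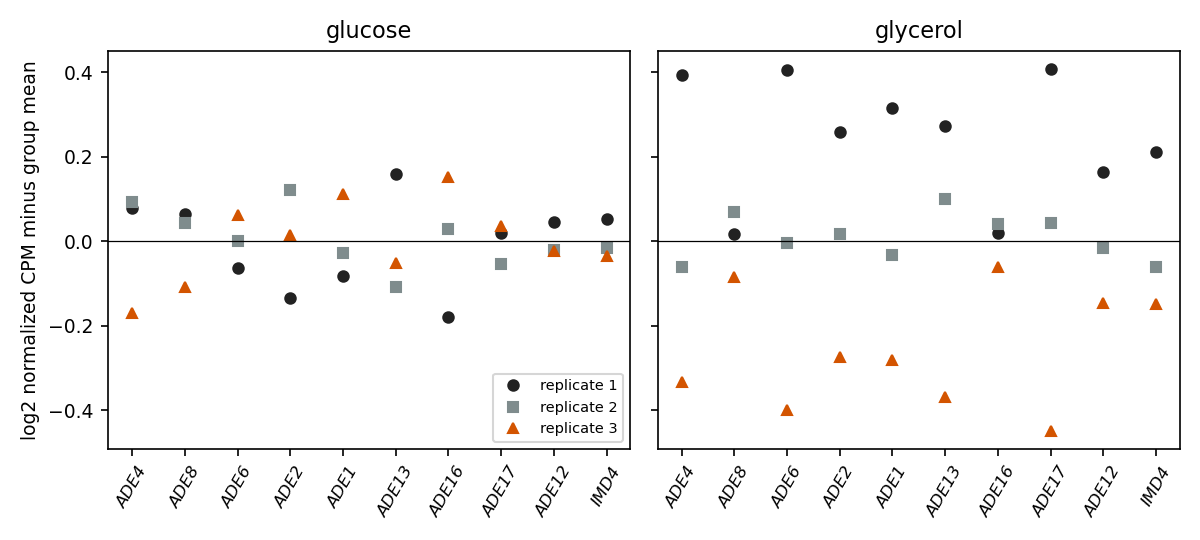
Log2 normalized CPM of each purine gene minus the mean of its group, for the 3 glucose libraries (left) and the 3 glycerol libraries (right), with the genes in pathway order. In glycerol the replicate 3 marker is the lowest for each of the 10 genes, while ADE8 and ADE16 vary least.

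The rest of the pathway was read from lists of other genes of purine metabolism, 27 in all. The 4 other genes of synthesis from PRPP to GMP and AMP all fell, where 40.1% of all tested genes were called lower. Besides IMD2 and IMD3 these were ADE5,7, a bifunctional gene whose product acts at 2 early steps of the chain, with 765, 790 and 871 CPM in glucose and 357, 287 and 205 in glycerol (log2 fold change -1.52, SE 0.163, adjusted p = 4.3e-07), and GUA1, the GMP synthetase, with 956, 1022 and 1079 CPM in glucose and 430, 370 and 386 in glycerol (log2 fold change -1.37, SE 0.113, adjusted p = 2.0e-08). In both cases the groups stood far apart. The promoters of both also held the hexamer:
ADE5,7, chrVII:56253-56282, plus strand: ttttttttcagtTGACTCgccccgtcggta
ADE5,7, chrVII:56286-56315, plus strand: acaagtgccgacTGACTCgtgtcctggtaa
GUA1, chrXIII:701508-701537, plus strand: ttcccgacatttTGACTCttttcatgccgt
Neither IMD2 nor IMD3 held it within 500 bases.

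The 5 PRPP synthetase genes, whose products supply the ribose, were called lower in glycerol with TMM, as were 40.1% of all tested genes. Their log2 fold changes were -1.56 for PRS1, -1.06 for PRS5, -0.97 for PRS4, -0.65 for PRS3 and -0.44 for PRS2. With library totals alone, however, PRS2 turned to 0.06 and PRS3, at -0.15, was no longer called. PRS1 carried the largest change, from 867, 745 and 666 CPM to 283, 268 and 220.

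Of 9 genes of purine salvage and uptake, 7 fell and 2 rose, where 40.1% of all tested genes were called lower and 41.7% higher. The largest falls were those of the phosphoribosyltransferases that recycle bases, HPT1 for hypoxanthine and guanine at -2.66 (SE 0.146, adjusted p = 1.9e-10) and APT1 for adenine at -2.58 (SE 0.139, adjusted p = 1.6e-10). HPT1 went from 779, 803 and 591 CPM to 126, 121 and 97.3, and APT1 from 937, 914 and 709 to 148, 157 and 125. In glucose, replicate 3 was the lowest library for each of them, yet it stayed far above the glycerol libraries. Further falls were found for XPT1, the xanthine phosphoribosyltransferase, at -1.35, for AAH1, the adenine deaminase, at -1.31, for MEU1, which releases adenine from methylthioadenosine, at -1.27, for FCY2, the purine and cytosine permease, at -0.98, and for PNP1, the purine nucleoside phosphorylase, at -0.73, a call that was lost with library totals alone (-0.24, adjusted p = 0.0728). The 2 that rose were GUD1, the guanine deaminase, at 0.90 (13.3 ± 3.29 to 24.9 ± 2.39 CPM, SD, n = 3 each), and APT2, a paralog of APT1, at 0.70 (33.5 ± 4.88 to 54.2 ± 4.77 CPM), both from low levels.

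Among 7 genes that interconvert purine nucleotides, 5 fell, 1 rose and 1 was not called, beside 40.1% lower and 41.7% higher over all tested genes. ADO1, the adenosine kinase, went from 1853, 1642 and 1557 CPM to 376, 364 and 295, a log2 fold change of -2.29. ADK1, the major adenylate kinase, was at -1.91, GUK1, the guanylate kinase, at -1.52, and ISN1, the IMP-specific nucleotidase, at -1.07. ADK2, the mitochondrial adenylate kinase, was at -0.55 with TMM and at -0.05, no longer called, with library totals alone. AMD1, the AMP deaminase that returns AMP to IMP, rose from a mean of 93.5 ± 7.29 CPM to 122 ± 9.02 CPM (SD, n = 3 per group), or by 0.38 on the log2 scale (adjusted p = 0.0033). YNK1, the nucleoside diphosphate kinase, was at -0.12 (95% interval -0.38 to 0.14, adjusted p = 0.379) with overlapping libraries, but was called higher with library totals alone (0.38, adjusted p = 0.0070), which made the list 4 lower and 2 higher.

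Neither regulator was called lower. BAS1 stood at 39.4, 33.5 and 27.2 CPM in glucose and at 48.2, 40.5 and 42.1 in glycerol, a log2 fold change of 0.39 (SE 0.132, adjusted p = 0.0142). Its call was lost without glucose replicate 3 (adjusted p = 0.0628) and without glycerol replicate 1 (0.0547). PHO2 had 43.8, 46.8 and 52.3 CPM in glucose and 52.7, 55.6 and 55.6 in glycerol, and its log2 fold change of 0.20 (95% interval -0.02 to 0.42) was not called at an adjusted p of 0.0872. It was called without glucose replicate 3 (0.27, adjusted p = 0.0258), with the stricter count minimum (0.25, adjusted p = 0.0364) and with either scaling by library totals. Transcript levels do not measure the activity of these factors.

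**Figure D4:**
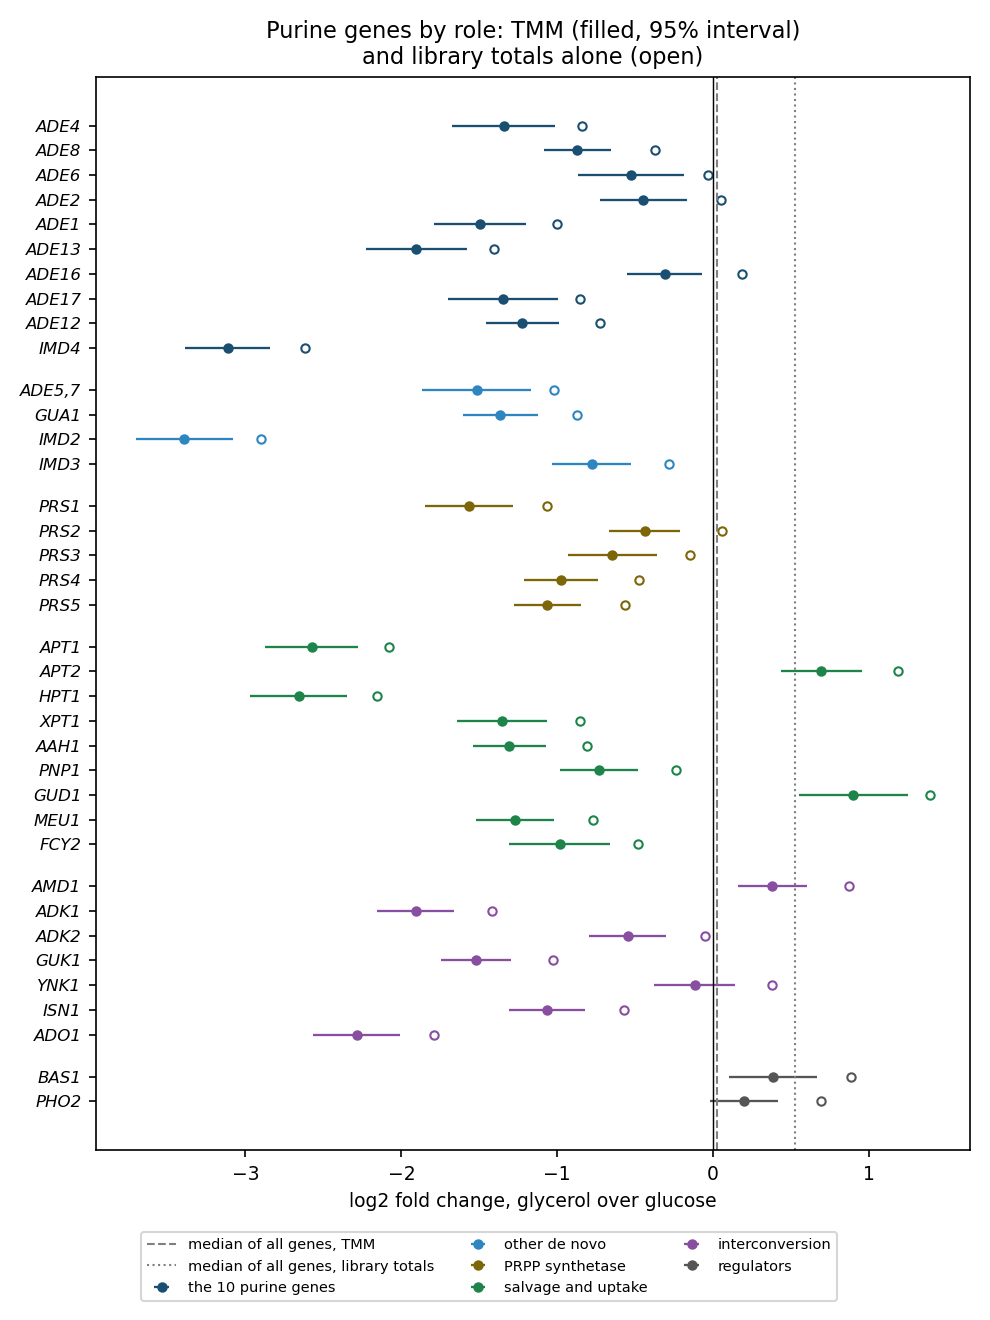
Log2 fold change, glycerol over glucose, of the 10 purine genes and the 27 other genes of purine metabolism by role; filled points are TMM values with 95% intervals, open points are library totals alone, and vertical lines mark the medians of all genes at 0.03 and 0.52. Most genes lie left of the median of all genes under either scaling, with APT2, GUD1, AMD1, BAS1 and PHO2 to its right. PHO2 was not called under TMM but was called higher with library totals alone. ADE2, ADE16, PRS2 and YNK1 change sign between the scalings.

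Over the 37 genes of purine metabolism, 31 were called lower, 4 higher and 2 were not called under TMM, where 40.1% of all tested genes were called lower. With library totals alone 24 were called lower and 6 higher, where 1652 of all 6330 tested genes were called lower and 3605 higher. The median of the 10 genes, -1.28, can be set beside those of neighboring pathways. Of 8 genes of pyrimidine synthesis 6 were called lower and none higher under TMM, with a median of -1.41 and values from -3.79 for URA4 to 0.19 for URA10. With library totals alone 5 of them were called lower, and URA2 (0.60) and URA10 (0.69) were called higher. The 6 histidine synthesis genes all were called lower with TMM, with a median of -1.72, from -2.47 for HIS1 to -0.42 for HIS5, which turned to 0.08 with library totals alone. Of 8 genes of one-carbon metabolism 4 were called lower and 3 higher, where 40.1% of all tested genes were called lower and 41.7% higher. The lowest value was -1.32 for MIS1. The 3 higher genes were GCV1, GCV2 and GCV3 of the glycine cleavage system, up to 2.92 for GCV2. ADE3, the cytosolic tetrahydrofolate synthase, was at -0.02 and not called, but was called higher with library totals alone (0.47, adjusted p = 0.0012). Most genes of the pyrimidine and histidine lists thus fell as well, and whether the lists differ was not tested. The pyrimidine list leaves out URA3 and the histidine list HIS3, which are deleted in full and in part in this strain.

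**Figure D5:**
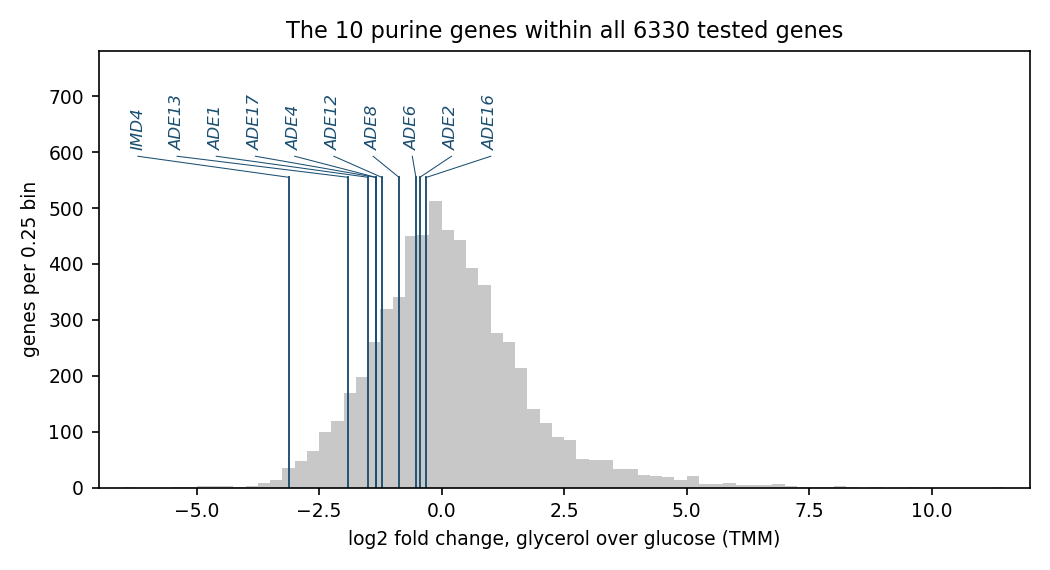
Histogram of the log2 fold changes (glycerol over glucose, TMM) of all 6330 tested genes in bins of 0.25, with a vertical line for each of the 10 purine genes. All 10 lines lie below the median of 0.03, and IMD4 is the farthest from it at -3.11; with library totals alone the median is 0.52 and ADE2 and ADE16 stand at 0.05 and 0.18.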

How the data were processed

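Per the labels, the libraries were processed with fastp 0.20.1, HISAT2 2.2.1, featureCounts 2.0.1 and DESeq2 on the R64 genome; roles are not given. The authors deposited raw counts per gene, and FPKM values, whose shares between isozymes within a library are those of the counts by construction. How reads matching several genes were counted is not given in the sources used here. The authors' fold changes and p-values were not used.

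Genes that reached 10 counts in 3 or more libraries were scaled with TMM and tested with edgeR 4.0.16 (quasi-likelihood test, R 4.3.3), with Benjamini-Hochberg adjustment over all 6330 genes, a threshold of 0.05 and 95% intervals from the standard errors. DESeq2 1.42.0 served as an alternative. The steps were also run on simulated counts, in which few genes changed and no shift in composition was put in. That run does not assess the scaling between the groups. Replicates differed by more than counting noise (chi-square per degree of freedom 16.1 to 62.2). Over 5667 genes averaging 100 counts or more, the deviations of same-numbered libraries correlated at 0.246, 0.102 and 0.281. Those of differently numbered libraries correlated between -0.29 and 0.054. The numbers may thus pair the libraries, although no label says what they share. The main fits and tests did not use the pairing, which entered as an alternative. The coordinates of all 10 genes are the same in RefSeq R64. Isozymes were aligned with Biopython 1.88.

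The genes and lists were chosen with earlier results of these data known. Named are the 10 genes, all genes of the purine lists, and the extremes of the pyrimidine, histidine and one-carbon lists. GCV1, GCV3, ADE3, SHM2, HIS7, URA1, URA2, URA6 and URA7 were added after their values were seen.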

Additional observations from a re-analysis of the deposited data

How the results depend on the processing

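Scaling moved the values most. With library totals alone, the median log2 fold change of the 10 purine genes was -0.79 in place of -1.28, and the sign turned for ADE2 (0.049), ADE16 (0.18), PRS2 (0.057), YNK1 (0.38), ADE3 (0.47), HIS5 (0.078) and URA6 (0.079); YNK1 and ADE3 then passed the threshold as higher, as did PHO2 (0.69), URA2 (0.60) and URA10 (0.69). The share of higher genes among all calls was then 68.6% in place of 50.9%. With totals that leave out ribosomal protein genes, YNK1 was at 0.014, ADE3 at 0.11, and 9 of the 10 were called lower. Of all 6330 tested genes, 2285 were then called lower. ADE3, whose main value is -0.02, was at 0.024 with at least 100 counts in 3 libraries and between -0.089 and 0.042 with a library left out. With the replicate number as a block, 5229 genes were called in place of 5176, and 2573 of the 6330 tested genes were called lower. All 10 purine genes stayed lower in that fit (median -1.30), and no call of a listed gene changed. With DESeq2 size factors, the DESeq2 test and both count filters, 10 of the 10 were called lower. Over all genes tested in these fits, between 2358 and 2565 were called lower. Leaving out single libraries gave between 7 and 10 of the 10 purine genes, and their median lay between -1.41 and -1.12. Between 2362 and 2525 of all genes tested were then called lower. The difference in the ADE17 share stayed between -21.4 and -15.2 percentage points and that in the IMD4 share between -30.7 and -26.8. With same-numbered libraries paired, a test added after seeing the data, each share was lower in 3 of 3 pairs, and the exact two-sided p was 0.25 for both, the smallest that 3 pairs allow; the mean differences stay -18.3 and -28.8 points by construction. None of the 10 was called higher in any of these fits.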
